A study of Mus musculus with 4 samples.

Results

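Wnt ligands, their Frizzled and Lrp receptors and the secreted proteins that block them were followed across 4 L1210 cell lines. The genes were taken by symbol from the deposited array table: Wnt, Fzd, Dkk or Sfrp followed by a number, plus Lrp5, Lrp6, Frzb and Wif1. This gave 41 of the 24561 gene symbols on the array, namely 19 Wnt ligands, 10 Frizzled receptors, 2 Lrp co-receptors and 10 antagonists, read at 49 positions. L1210 is a mouse lymphocytic leukemia line, labelled as DBA subline 212. All 4 lines were infected with lentivirus, sorted for GFP and kept as stable lines in RPMI 1640 medium with serum. L1210-control was the control line, L1210-Fbxw11a overexpressed the full-length transcript of Fbxw11, L1210-Fbxw11c a transcript without exon 2, and L1210-Fbxw11d a transcript without exons 2 and 3. They are called the control, Fbxw11a, Fbxw11c and Fbxw11d lines. Whether each line was 1 clone was not given in the sources used here. Total RNA of each line was hybridised to 1 Agilent 1-colour array, so no value has a replicate, no p-value is given, and the number of arrays limits the precision.

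Wnt proteins are secreted lipid-modified glycoproteins. They bind Frizzled receptors together with Lrp5 or Lrp6, which stops the destruction of β-catenin and lets it act with TCF and LEF factors in the nucleus, while other Wnt proteins signal without β-catenin. Dkk proteins block the Lrp co-receptors, and Sfrp proteins, Frzb and Wif1 bind Wnt proteins outside the cell. Fbxw11, also called β-TrCP2, is the substrate-binding part of a ubiquitin ligase whose many known substrates include β-catenin and the NF-κB inhibitor IκB. Wnt signaling is known for its part in the growth of early lymphoid cells.

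The array reads a gene through a 60-base oligonucleotide. The first 30 bases are shown for the genes at least 2-fold higher in the Fbxw11a line than in every other line and for Wnt10b, because every difference described for them was read at this 1 place in the transcript. Coordinates are those of the deposited table, on mm9.
Dkk1, chr19:30621424-30621483, minus strand: tactgtgttgtaaatcctcagtgtggcact
Wnt2b, chr3:104748831-104748890, minus strand: tcatttacccagcaaatctttattttgtga
Wnt11, chr7:106001985-106002045, plus strand: gaaactgataggattaaaaataacctggca
Wnt16, chr6:22247804-22247863, plus strand: acggagtttccggctcctgtgctgtgaaaa
Wnt10b, chr15:98602209-98602268, minus strand: gggtgggaatggataatttattttactgag
The longest run of bases shared by the oligonucleotides of different genes in the family was 14, between Wnt16 and Lrp6. Whether each place lies in a coding or untranslated exon was not analysed here.

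Some 250-base stretches upstream of a RefSeq gene start (GRCm38.p6) are printed because β-catenin acts through TCF sites and IκB through NF-κB. A TCF core was searched as the letters CTTTG followed by a pair of bases that are each A or T, and a κB site by its consensus, each on both strands, and matches are in capitals. Dkk1 held TCF cores 110 and 91 bases before its start, Wnt11 held 1 core, read on the opposite strand, 44 bases before 1 of its 2 starts, and Wnt10b held κB matches 194 and 30 bases before its start.
Dkk1, chr19:30549497-30549746, minus strand: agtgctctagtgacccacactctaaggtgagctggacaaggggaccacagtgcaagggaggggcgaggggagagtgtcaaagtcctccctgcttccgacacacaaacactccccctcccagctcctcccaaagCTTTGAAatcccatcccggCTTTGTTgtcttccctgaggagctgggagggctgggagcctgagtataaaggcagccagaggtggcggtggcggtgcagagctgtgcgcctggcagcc
Wnt11, chr7:98834862-98835111, plus strand: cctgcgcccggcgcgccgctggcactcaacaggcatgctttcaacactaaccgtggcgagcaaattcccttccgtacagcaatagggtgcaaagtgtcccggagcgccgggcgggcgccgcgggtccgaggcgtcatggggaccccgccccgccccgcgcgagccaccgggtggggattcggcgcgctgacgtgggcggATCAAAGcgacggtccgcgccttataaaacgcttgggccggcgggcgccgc
Wnt10b, chr15:98778151-98778400, minus strand: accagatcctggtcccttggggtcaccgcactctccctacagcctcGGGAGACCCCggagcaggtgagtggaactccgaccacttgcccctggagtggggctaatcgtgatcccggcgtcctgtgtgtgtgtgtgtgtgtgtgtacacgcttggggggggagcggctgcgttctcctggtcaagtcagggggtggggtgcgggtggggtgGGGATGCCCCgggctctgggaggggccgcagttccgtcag
A TCF core was in 4 of the 30 upstream stretches that matched 27 of the 41 genes (Dkk1, Wnt11, Fzd7 and Wnt5b) and in 14.8% of 32851 such stretches over all genes. A κB match was in 1 of the 30 stretches and in 3.90% of all. The stretches of Wnt2b and Wnt16 held neither.

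Signals are intensities on the scale of the control array, after each array was scaled to its 75th percentile. These percentiles were 620.2 to 672 for the 3 arrays on slide 1 and 954 for the Fbxw11d line, which was alone on slide 2, so that slide and variant cannot be told apart for this line. The added spike-in RNAs had log2 differences to the control line of 0.13 ± 0.05 and 0.16 ± 0.10 (SD, n = 8 spike-in oligonucleotides) for the Fbxw11a and Fbxw11c lines, and of -0.58 ± 0.08 (SD, n = 8) for the Fbxw11d line. The brighter Fbxw11 position, late in the transcript, gave log2 ratios of 0.31, 0.27 and 0.03. Whether the introduced sequence holds this position was not given in the sources used here, so it checks no label. Of 17 lymphoid marker genes on the array, 11 were well above background in all 4 lines, among them Cd4 and Cd3e, while Cd79b, Ebf1, Igll1, Rag1, Cd3g and Thy1 were not above it in any. The summed signal of 10 epithelial markers was 132909 in the control line and 185447 to 202047 in the 3 variant lines, mostly from Krt8 and Krt18, with Cdh1 not above background in any line. Of the 8 measured against the control line, 8 lay above it in the Fbxw11a line (median log2 ratio 0.47) and 6 in the Fbxw11c and Fbxw11d lines (medians 0.33 and 0.23), where Esrp1 and Cldn7 lay below it. Epcam passed 2-fold in the Fbxw11a line, at 1.22, and Krt14 in the Fbxw11d line, at 1.01. Its part in the differences below was not tested. Among 10 fibroblast markers, Col1a2 passed 2-fold in all 3 variant lines, with log2 ratios of 1.45, 2.10 and 2.05, and its part was not tested either. The median log2 ratios of the fibroblast markers measured were -0.02, 0.06 and 0.33. Col1a1 also lay above the control in all 3 lines and Pdgfra lay below it in all 3. Dcn and Fn1 changed sign between lines. Of 10 macrophage markers, 7 were measured in all lines, and Lyz2, Fcgr1 and Ccr2 in none. Their summed signal, mostly from Cd68 and Itgam, was 14727 in the control line and lower in the 3 variant lines, at 11219 to 12484. Cd68, Cd14, Mrc1, Itgam and Csf1r lay below the control in all 3, and Csf1r passed 2-fold lower in the Fbxw11d line, at -1.12. Emr1 lay above the control in the Fbxw11a and Fbxw11d lines, at 0.91 in each, and Marco at 0.25 and 0.40. Both lay below it in the Fbxw11c line. The part of these macrophage markers was not tested. In bulk RNA, fewer cells with a transcript and less of it per cell cannot be told apart.

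A transcript was called measured in a line when at least 0.5 of its spots were flagged well above background by the scanner software. By this measure 25 of the 41 genes (61.0%) were measured in all 4 lines and 12 (29.3%) in none, against 66.2% and 22.6% of all gene symbols. The counts differed between families. Of the 19 Wnt genes 14 were measured in all 4 lines, of the 10 Frizzled genes 7, and both Lrp genes were. Of the 10 antagonists, only Sfrp2 and Sfrp5 were measured in all 4 lines and 6 were in none. The genes not above background in any line were Wnt2, Wnt3, Wnt3a, Fzd6, Fzd9, Fzd10, Dkk2, Dkk3, Dkk4, Sfrp1, Sfrp4 and Wif1. Wnt3a is the ligand most often used to start β-catenin signaling in culture, and its transcript was among these. The 4 genes measured in some lines only were Dkk1, Wnt2b, Wnt8a and Frzb.

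A gene was called different between 2 lines at 2-fold or more, with the gene above background in at least 1 of them. Where it was not above background in the other, the ratio is a bound. In the Fbxw11a line, 4 of 29 genes passed 2-fold against the control line, beside 4.45% of all genes compared. All 4 were higher, beside 2.43% of all genes, and none lower, beside 2.02%. In the Fbxw11c line, 5 of 29 passed, beside 3.88%. Of these 3 were higher, beside 1.61%, and 2 lower, beside 2.27%. In the Fbxw11d line, 4 of 29 passed, beside 5.75%. Of these 1 was higher, beside 1.05%, and 3 lower, beside 4.7%. With median centring 4 were higher and 2 lower in this line, beside 5.33% of all genes in either direction. With quantile normalization and with the authors' values 2 were higher and 2 lower, beside 5.08% and 5.04%. In all, 8 of the 29 genes passed in at least 1 variant line, against 9.16% of all genes. None of the 29 passed in the same direction in all 3 lines, against 1.41%. Dkk1 and Wnt2b passed in opposite directions, as 0.142% of all genes did. The 3 comparisons share 1 control array.

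**Figure D1:**
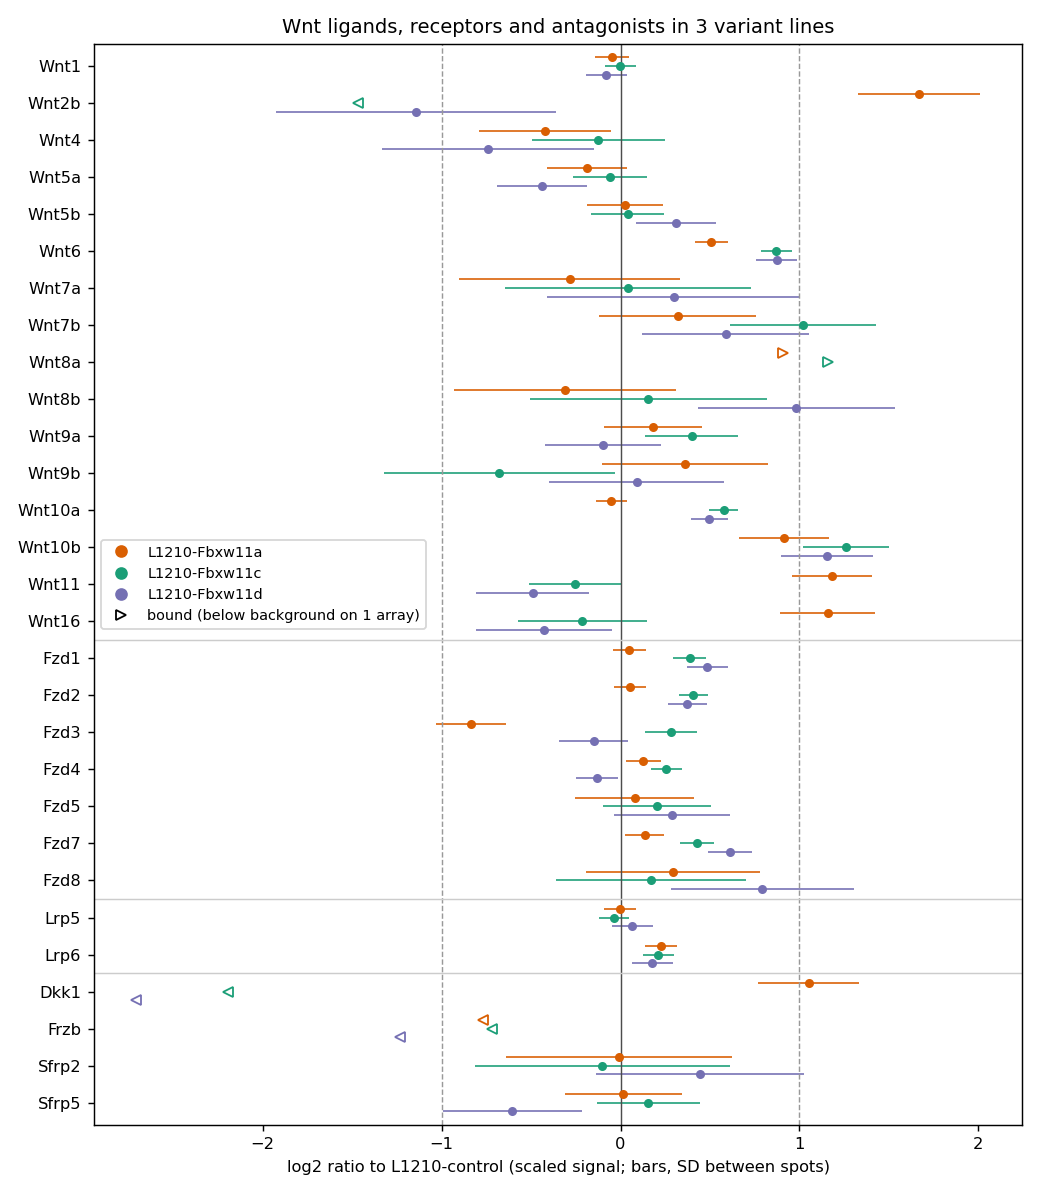
Log2 ratios to the control line of the 29 genes above background in at least 1 line, by family from top to bottom (Wnt, Frizzled, Lrp, antagonists). Filled points are measured ratios with the SD between spots, open triangles are bounds, and dashed lines mark 2-fold. Wnt2b and Dkk1 lie beyond 2-fold to the right in the Fbxw11a line and to the left in the other variant lines, while Lrp5 and Lrp6 lie between -0.04 and 0.23.

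Among the ligands, Wnt2b, Wnt11 and Wnt16 were each more than 2-fold higher in the Fbxw11a line than in any other line. Wnt11 and Wnt16 are known mainly for signaling without β-catenin, and Wnt2b for signaling through it. Wnt2b had a signal of 41.1 in the control line, 130.6 in the Fbxw11a line, 10.6 in the Fbxw11c line and 18.6 in the Fbxw11d line. The value in the Fbxw11c line did not clear the background. The full-length line was the highest and both shorter variants lay below the control. The log2 ratio to the control line was 1.67 ± 0.34 in the Fbxw11a line, where each error of a ratio is the SD between spots of oligonucleotides of like brightness. It was at most -1.47 in the Fbxw11c line and -1.14 ± 0.78 in the Fbxw11d line. Under quantile normalization, median centring and the authors' own values, the ratio in the Fbxw11d line fell short of 2-fold, at -0.91, -0.92 and -0.90. Between the Fbxw11a and Fbxw11d lines the difference was 2.81 ± 0.73 on the log2 scale.

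Wnt11 had signals of 102.4 in the control line, 232.3 in the Fbxw11a line, 85.9 in the Fbxw11c line and 72.8 in the Fbxw11d line. Its log2 ratio to the control line was 1.18 ± 0.23 in the Fbxw11a line, and -0.25 ± 0.26 and -0.49 ± 0.31 in the Fbxw11c and Fbxw11d lines. The Fbxw11a line was the highest, and both shorter variants lay below the control, the Fbxw11c line within 1 SD between spots. Wnt16 followed the same order, with 78.4, 175.2, 67.6 and 58.3 in the control, Fbxw11a, Fbxw11c and Fbxw11d lines. Its log2 ratios were 1.16 ± 0.27, -0.21 ± 0.36 and -0.43 ± 0.38, the second within 1 SD between spots. For Wnt11 and Wnt16 the ratio in the Fbxw11d line was smaller in size than the spike-in difference of -0.58 for that line. Scaling to the spike-ins was not tried. The Wnt16 values rest on 1 of its 2 positions, since the other was not above background in any line, and averaging both took the ratio in the Fbxw11a line to 0.42, short of 2-fold.

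Wnt10b, a ligand that signals through β-catenin and is known from blood stem and lymphoid cells, was higher in all 3 variant lines. Its signal was 89.5 in the control line, 168.7 in the Fbxw11a line, 214.7 in the Fbxw11c line and 199.0 in the Fbxw11d line. The log2 ratios were 0.91 ± 0.25, 1.26 ± 0.24 and 1.15 ± 0.26, so that 2 lines passed 2-fold and the Fbxw11a line, at 1.88-fold, did not. The variant lines differed among themselves by at most 0.35 ± 0.15 on the log2 scale, in favour of the Fbxw11c line over the Fbxw11a line. Wnt1, whose position lies 21.992 kb from that of Wnt10b on chromosome 15 of mm9, had signals of 947.4, 915.5, 947.0 and 897.0 in the same order of lines. Its log2 ratios were between -0.08 and 0.00, each within 1 SD between spots. They rest on 1 of its 2 positions, since the other was not above background in any line, and averaging both gave -0.95, -0.52 and -1.12, the last past 2-fold.

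Wnt6 and Wnt10a, a second pair of neighbours 19.172 kb apart on chromosome 1, were both higher in the Fbxw11c and Fbxw11d lines without reaching 2-fold. Wnt6 had signals of 748.4 in the control line, 1063 in the Fbxw11a line, 1368 in the Fbxw11c line and 1371 in the Fbxw11d line, with log2 ratios of 0.51 ± 0.09, 0.87 ± 0.09 and 0.87 ± 0.11. Wnt10a, the ligand closest to Wnt10b in sequence, had 17959, 17335, 26783 and 25347, with log2 ratios of -0.05 ± 0.09, 0.58 ± 0.08 and 0.50 ± 0.11. Wnt6 was above the control in all 3 variant lines, and Wnt10a in the 2 shorter variants. Median centring took Wnt6 in the Fbxw11d line past 2-fold, at 1.09.

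The remaining ligands that passed 2-fold in some pair of lines had signals within a few times the detection limit. Wnt7b, known from epithelia and the nervous system, had signals of 37.3, 46.5, 75.6 and 56.0 in the control, Fbxw11a, Fbxw11c and Fbxw11d lines, and passed in the Fbxw11c line at 1.02 ± 0.41. Wnt8a was not well above background in the control line at 10.0, and had 33.9, 40.5 and 12.4 in the variant lines. It was at least 1.88-fold and 2.24-fold higher in the Fbxw11a and Fbxw11c lines, and no fold is given for the Fbxw11d line. Wnt8a was the 1 gene of 27 that passed 2-fold between the Fbxw11c and Fbxw11d lines, at 1.71 ± 0.89 on the log2 scale, higher in the Fbxw11c line. Of all genes 4.23% passed in this pair, 3.46% higher and 0.775% lower.

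Wnt8b had 25.2, 20.3, 28.1 and 49.9 in the 4 lines, and was 2.45-fold lower in the Fbxw11a line than in the Fbxw11d line. At its second position, also above background in both lines, it was 1.37-fold lower, short of 2-fold. Its second position gave lower bounds on the log2 ratio to the control line of 0.15, 0.34 and 0.60, against -0.31, 0.16 and 0.98 at the first, so the sign in the Fbxw11a line differed between positions. Its ratio in the Fbxw11d line passed 2-fold with quantile normalization, median centring and the authors' values, reaching 1.20. Wnt9b had 34.5, 44.2, 21.6 and 36.7, and was 2.05-fold higher in the Fbxw11a line than in the Fbxw11c line. The other 6 measured ligands, Wnt4, Wnt5a, Wnt5b, Wnt7a, Wnt9a and Wnt1, had log2 ratios to the control line between -0.74 and 0.40. The lowest of these was Wnt4 in the Fbxw11d line, with 50.3 in the control line and 37.6, 46.2 and 30.1 in the variant lines, at the 1 of its 2 positions that cleared the background.

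**Figure D2:**
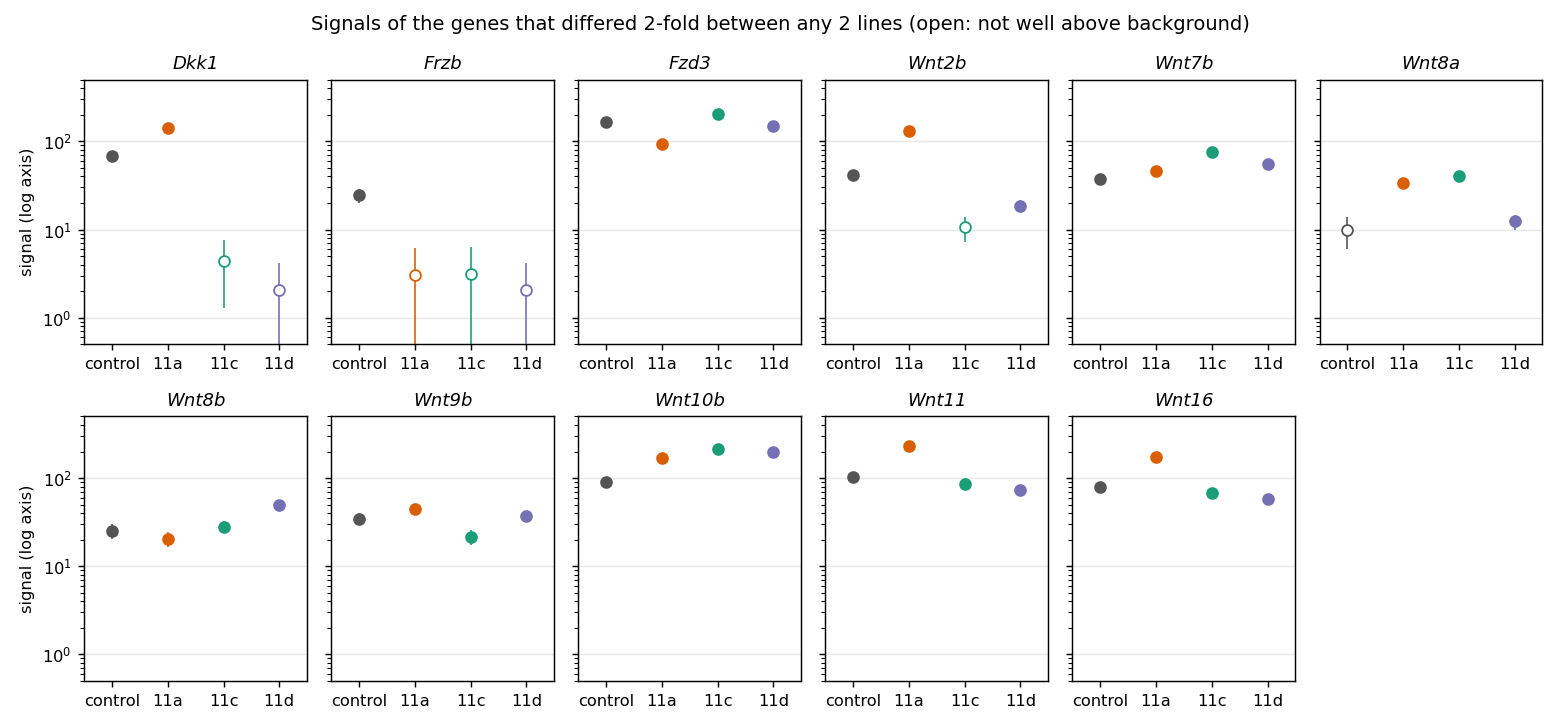
Signals on a log axis, on the scale of the control array, of the 11 genes that differed 2-fold in at least 1 pair of lines, with 1 array per line (control, 11a, 11c and 11d). Open circles are not well above background, and bars are the error that the scanner software gives for each spot, some running off the axis. Dkk1, Wnt2b, Wnt11 and Wnt16 are highest in the Fbxw11a line, and Wnt10b is lowest in the control line.

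Frizzled proteins are the cell-surface receptors that Wnt ligands bind. None of their genes passed 2-fold against the control line, and the 7 measured genes had log2 ratios between -0.83 and 0.79. The highest was Fzd8 in the Fbxw11d line, which reached 1.01 with median centring. Fzd3, a receptor known for planar polarity and axon growth, was the lowest. It had 166.5 in the control line, 93.4 in the Fbxw11a line, 202.7 in the Fbxw11c line and 150.2 in the Fbxw11d line, and was 2.17-fold lower in the Fbxw11a line than in the Fbxw11c line (-1.12 ± 0.19 on the log2 scale). Its ratios to the control line were -0.83 ± 0.19, 0.28 ± 0.14 and -0.15 ± 0.19, the last of which turned to 0.07 with median centring.

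In the Fbxw11c line all 7 measured Frizzled genes lay above the control line, with log2 ratios of 0.17 to 0.43 and a median of 0.28, beside a median of 0.02 over all genes, of which 53.5% were higher. With normexp correction and with the mean over a gene's positions, 6 of the 7 lay above. In the Fbxw11d line, 5 of the 7 were higher, with a median of 0.37 beside 0.04, and in the Fbxw11a line, 6 of 7 with a median of 0.08 beside 0.00. In the Fbxw11d line, 4 to 7 of the 7 lay above under the other scalings and corrections. Fzd7, a receptor for β-catenin signaling in stem cells, had 394.9, 433.4, 530.6 and 602.7 in the control, Fbxw11a, Fbxw11c and Fbxw11d lines. Fzd2 had 3180, 3298, 4214 and 4120, and Fzd1 had 912.6, 944.5, 1193 and 1277. These 3 genes were closest to the control in the Fbxw11a line.

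Lrp5 and Lrp6, the co-receptors that Dkk1 blocks, had log2 ratios near 0. Lrp5 had 2589 in the control line, 2580 in the Fbxw11a line, 2526 in the Fbxw11c line and 2712 in the Fbxw11d line, with log2 ratios of -0.01 ± 0.09, -0.04 ± 0.08 and 0.07 ± 0.11. Each was within 1 SD of the spots. The sign changed with the scaling in the Fbxw11c and Fbxw11d lines, and in the Fbxw11a line with normexp correction only. Lrp6 had 1180, 1380, 1367 and 1334, with ratios of 0.23 ± 0.09, 0.21 ± 0.09 and 0.18 ± 0.11. Its second position gave -0.13, 0.02 and 0.25, so that the higher Lrp6 in the Fbxw11a line was seen at 1 position only.

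How far 2 places in a transcript gave the same ratio was read from Fzd2, Fzd5, Fzd7 and Lrp6, the 4 of 8 genes with a second position that was above background in all lines. Over their 12 ratios to the control line the positions differed by a median of 0.15 and by up to 0.51 on the log2 scale, and 7 of the 12 had the same sign. Fzd2 and Fzd7 were higher at both positions in the Fbxw11c and Fbxw11d lines. Fzd5 was 0.20 at the first position and -0.31 at the second in the Fbxw11c line. The largest gap between positions was wider than the Frizzled ratios in the Fbxw11c line.

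**Figure D3:**
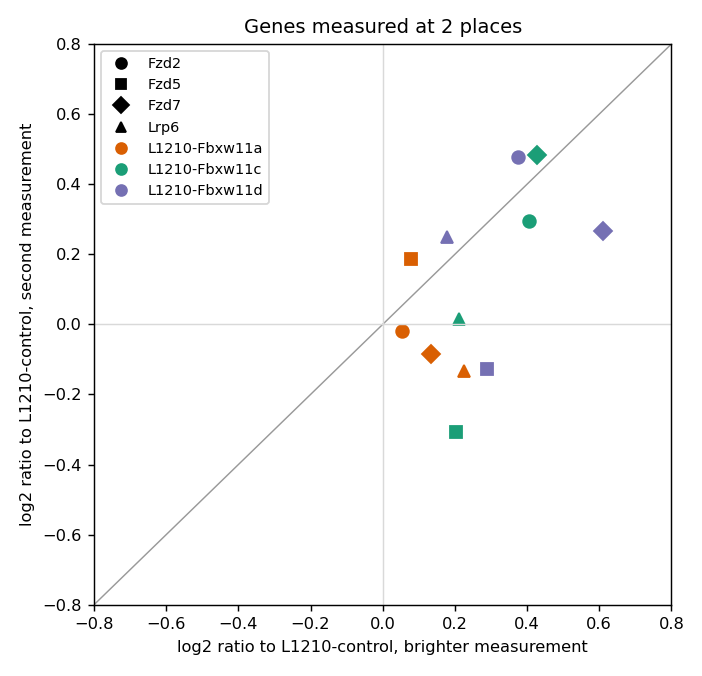
Log2 ratios to the control line at the brighter position (x axis) against the second position (y axis) for the 4 genes measured at both in all lines, with a symbol per gene and a colour per variant line. The line marks equal ratios; the gap was 0.51 at most, for Fzd5 in the Fbxw11c line.

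Of the antagonists, Dkk1 had the widest differences of the family. Dkk1 is itself a known target gene of β-catenin and TCF. Its signal was 67.9 in the control line and 140.8 in the Fbxw11a line, and it was not well above background in the Fbxw11c line, at 4.41, or in the Fbxw11d line, at 2.07. The full-length line was higher than the control by 1.05 ± 0.28 on the log2 scale. The Fbxw11c and Fbxw11d lines were at least 4.57-fold and 6.53-fold lower than the control. These bounds follow from the detection limits of 14.9 and 10.4 on those arrays, so no difference between the Fbxw11c and Fbxw11d lines is read from them. The Fbxw11a line was at least 9.47-fold above the Fbxw11c line and at least 13.5-fold above the Fbxw11d line.

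Frzb, a secreted decoy receptor for Wnt proteins, was above background in the control line only. Its signal was 24.4 there and 3.04, 3.12 and 2.07 in the Fbxw11a, Fbxw11c and Fbxw11d lines. The bound passed 2-fold in the Fbxw11d line, at 2.35-fold lower, and was 1.70-fold and 1.64-fold in the other variant lines, with the control signal itself close to the detection limit of 18.1. The limit was lowest in the Fbxw11d line, so the bounds give no difference between the variant lines. Sfrp2 had 23.5, 23.4, 21.9 and 32.0, and Sfrp5 had 76.2, 77.1, 84.9 and 50.1, neither past 2-fold in any pair of lines.

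The variant lines were also set against each other. The Fbxw11a line differed from the Fbxw11c line in 6 of 28 genes, beside 4.22% of all genes. Of these 5 were higher in the Fbxw11a line, beside 2.64%, and 1, Fzd3, was lower, beside 1.58%. It differed from the Fbxw11d line in 6 of 28, beside 6.02%, with 5 higher, beside 5.04%, and 1, Wnt8b, lower, beside 0.977%. The Fbxw11c and Fbxw11d lines differed in 1 of 27, as given above for Wnt8a. Dkk1, Wnt2b, Wnt11 and Wnt16 were at least 2-fold higher in the Fbxw11a line than in each of the other 3 lines, a pattern picked after the values were seen, which 1.25% of all genes showed. No gene of the family stood in this way above the rest in the control, Fbxw11c or Fbxw11d line, beside 1.22%, 0.657% and 0.205% of all genes. Among the 25 genes measured in all 4 lines, the highest and lowest line were 2-fold or more apart for 7 of the 25 (28%), against 8.39% of all genes.

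**Figure D4:**
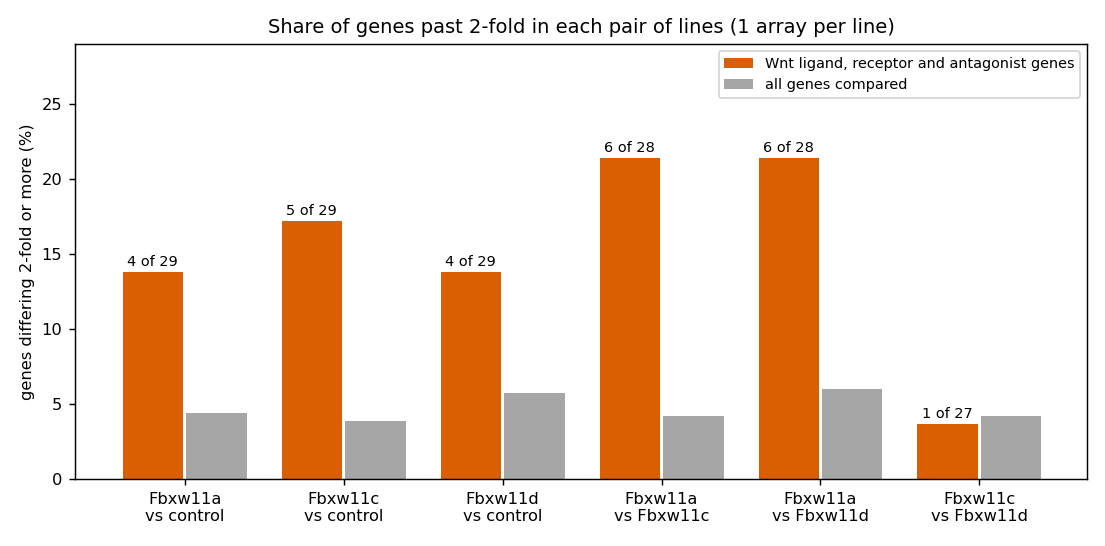
Share of genes that differed 2-fold or more in each pair of lines, for the Wnt ligand, receptor and antagonist genes (orange, with counts) and for all genes compared (grey). The orange share is above the grey in every pair except the Fbxw11c line against the Fbxw11d line, with 1 of 27 genes.

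The genes that passed 2-fold in any pair had low signals. The highest signal of each of these 11 genes lay between 24.4 and 232.3, beside lowest reliable signals of 10.4 to 18.1 on the 4 arrays. With normexp correction and an offset of 50, 0, 0 and 1 genes passed in the Fbxw11a, Fbxw11c and Fbxw11d lines, beside 1.37%, 1.18% and 2.48% of all genes. The one that passed was Dkk1 in the Fbxw11d line. Adding 50 to signals as low as these makes their ratios smaller by itself. The loss of calls therefore cannot be laid to the background correction. All log2 ratios shown for Wnt10b, Wnt11, Wnt16, Wnt2b and Dkk1 kept their direction.

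**Figure D5:**
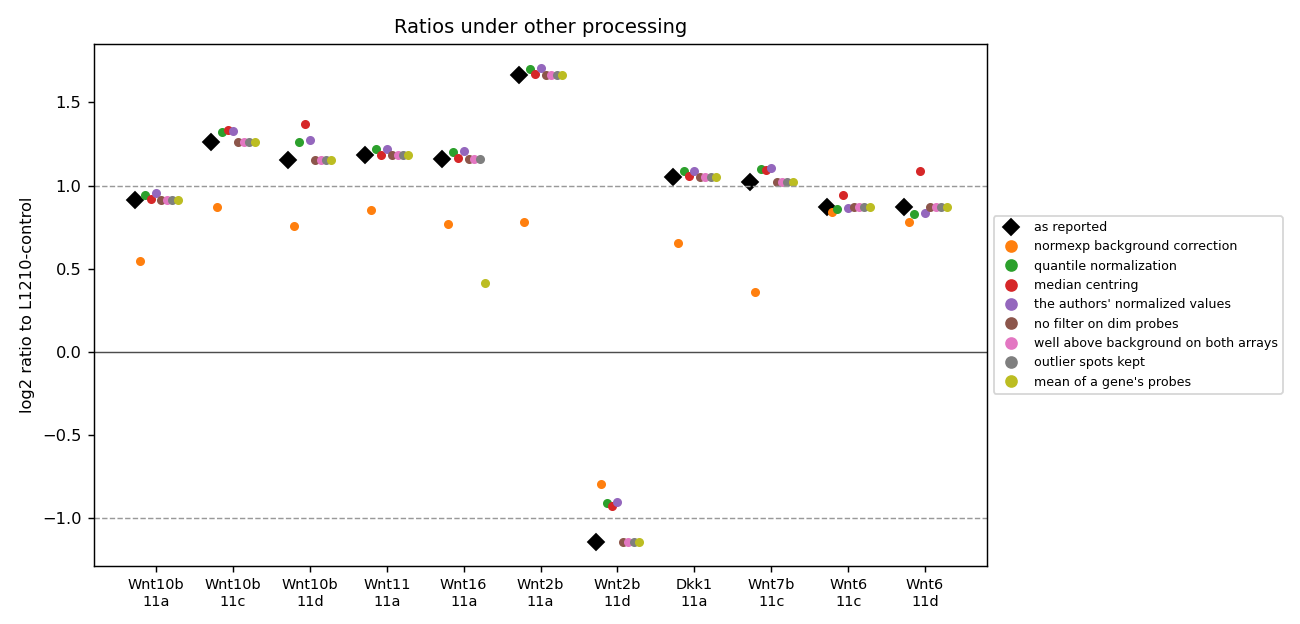
Log2 ratios to the control line of 11 gene and line pairs under the reported processing (black diamonds) and under 8 alternatives (coloured points), with dashed lines at 2-fold. The normexp points of these 11 pairs lie nearer 0 than the reported ratios, and Wnt16 in the Fbxw11a line falls to 0.42 when its second, undetected position is averaged in.

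The rest of the pathway was described through 3 lists. Of 12 genes for Wnt secretion and the R-spondin system, 7 were measured in all lines. Against the control line, 1 passed 2-fold higher and 1 lower in the Fbxw11a line, 1 higher in the Fbxw11c line and 0 in the Fbxw11d line, beside the 4.45%, 3.88% and 5.75% of all genes given above. Porcn and Wls, which attach the lipid and carry Wnt proteins to the surface, had log2 ratios of 0.25, 0.31 and 0.38 and of 0.07, 0.01 and 0.34 in the Fbxw11a, Fbxw11c and Fbxw11d lines. Genes of these lists were picked for naming after their values were seen. Lgr5, an R-spondin receptor and a β-catenin target, had signals of 206.8, 620.8, 443.5 and 376.1, with log2 ratios of 1.59 in the Fbxw11a line and 0.86 in the Fbxw11d line, and it passed 2-fold in the Fbxw11a and Fbxw11c lines. Rnf43, a ubiquitin ligase that removes Frizzled receptors from the surface, had 67.9, 33.7, 80.6 and 78.0, and was lower in the Fbxw11a line at -1.01. Lgr5 was above the control in every variant line, and Rnf43 below it in the Fbxw11a line only.

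Of 17 other receptors and extracellular modulators, 9 were measured in all lines, and 1 passed 2-fold against the control line, Gpc4, a cell-surface proteoglycan, at 1.30 in the Fbxw11d line, where 10 were compared, beside 5.75% of all genes. Of 26 intracellular transducers, 21 were measured in all lines, and 1 passed, Tle4, a TCF co-repressor, at -1.58 or lower in the Fbxw11a line, where 22 were compared, beside 4.45% of all genes. The median log2 ratios of the transducers were 0.04, 0.04 and -0.03, beside 0.00, 0.02 and 0.04 for all genes. Ctnnb1, which encodes β-catenin, had signals of 9625, 9331, 9995 and 12211. Axin2, a commonly used β-catenin target, was not above background in any line, and no gene of the 3 lists passed 2-fold in all 3 variant lines, beside 1.41% of all genes.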

How the data were processed

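The authors deposited Agilent Feature Extraction output for each array, with a background-corrected signal intensity per spot, and 1 table with log2 values normalized across the 4 arrays by a method not given in the sources used here. The file headers name Feature Extraction 10.7.1.1 and the submitters' processing notes name Agilent Feature Extraction 9.1. From the intensities, log2 of the processed signal minus the 75th percentile of its array was computed (Python 3.11.15, pandas 2.3.3). Control spots and outlier spots (102 to 167 per array) were left out, spots of an oligonucleotide were averaged, and a gene took its brightest position. A bound was set against the higher of the gene's own signal and the lowest signal well above background on that array. The SD of a ratio combines both arrays' median SD between spots of the 40 nearest in brightness among 399 oligonucleotides printed 10 times, for single spots. It leaves out culture, sorting and extraction. The genes detailed were those past 2-fold in any of the 6 pairs, with Lrp5 and Lrp6. Alternatives were normexp (limma 3.58.1, R 4.3.3, offset 50), quantile normalization, median centring, the authors' values, other filters, thresholds of 1.5-fold and 3-fold, and the mean of a gene's positions. Calling was tested on simulated data, but neither the setting nor the outcome is given here, so no call rests on that test. The genes and lists were chosen with earlier results of these data known. Marker lists for macrophages and for fibroblasts (5 of 10 measured in all lines, summed signal 34312 in the control line and 33015 to 38600 in the variant lines) were also read.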

Additional observations from a re-analysis of the deposited data

Results flagged for a closer look

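Dkk1 and Wnt2b were higher in L1210-Fbxw11a than in L1210-control and lower in the other variant lines. For Dkk1 the log2 ratios to L1210-control were 1.05 (Fbxw11a line), at most -2.19 (Fbxw11c line) and at most -2.71 (Fbxw11d line). For Wnt2b they were 1.67, at most -1.47 and -1.14. With 1 array per line, the difference between the lines was not tested.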

How the results depend on the processing

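The number of family genes past 2-fold against L1210-control, 4, 5 and 4 as reported for L1210-Fbxw11a, L1210-Fbxw11c and L1210-Fbxw11d, became 0, 0 and 1 with normexp correction (beside 1.37%, 1.18% and 2.48% of all genes), 8, 8 and 11 at 1.5-fold (beside 10.8%, 9.87% and 14.7%), and 1, 1 and 1 at 3-fold (beside 1.99%, 1.69% and 2.04%). Without a filter on dim signals L1210-Fbxw11a had 7 (beside 8.16%), and with both arrays above background L1210-Fbxw11c and L1210-Fbxw11d had 2 and 2 (beside 2.20% and 4.37%). Median centring gave 6 in L1210-Fbxw11d (beside 5.33%). For genes that differed between variant lines, 8 as reported (beside 9.05% of all genes), alternatives chosen after seeing the data gave 4 with normexp (beside 3.23%), 13 at 1.5-fold (beside 23.1%) and 5 at 3-fold (beside 3.15%). Normexp also turned the log2 ratio of Lrp5 in L1210-Fbxw11a to 0.0152 and in L1210-Fbxw11c to 0.0315, and that of Wnt9b in L1210-Fbxw11d to -0.28. Quantile normalization and the authors' values turned Lrp5 in L1210-Fbxw11d to -0.0062 and -0.0019. Median centring turned Lrp5 in L1210-Fbxw11c to 0.0360 and Fzd3 in L1210-Fbxw11d to 0.0686. It also moved the median of all genes in L1210-Fbxw11d from 0.04 to 0.26, and a ratio there is read against that shift. Of 240 measured ratios of single genes under alternatives, 217 moved by less than the spread between spots, 16 by more, and the 7 given above changed sign. Another 48 were bounds, which have no such spread, and 4 of them crossed 2-fold. The 217 include ratios that could not move. The filters on dim signals leave a measured ratio as it is, and so does the mean over positions for genes with 1 position. Keeping outlier spots also returned the same ratios. The 217 therefore overstate how stable the ratios were. The log2 bound of Dkk1 ranged from -2.19 to -0.98 in L1210-Fbxw11c and from -2.71 to -1.48 in L1210-Fbxw11d, and that of Wnt8a in L1210-Fbxw11a from 0.36 to 0.91. Without a filter, 8 ratios reported as bounds became plain ratios to signals not above background, and 3 of them crossed 2-fold. The counts of detected genes were the same under the alternatives tried for them. No paired analysis was possible because each line has 1 array. Signals near background limit Wnt7b, Wnt8a, Wnt8b, Wnt9b, Frzb and Sfrp2, and 1 array per line limits every value.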
